A study of Homo sapiens with 18 samples.

Results

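Neuroepithelium at day 10 of neural differentiation was compared with embryoid bodies at day 6, both derived from H9, a human embryonic stem (ES) cell line. The comparison took the 3 arrays labelled day 10 neural epithelial with no growth factor named (pools 1 and 2 are called primitive, pool 3 is not), and the 3 arrays labelled day 6 embryoid bodies, which are 6 of the 18 arrays of the study. The other 12 arrays cover undifferentiated ES cells, untreated day 17 cells, and day 10 and day 17 cells grown with basic fibroblast growth factor (bFGF), with 3 arrays in each group. Each array measured a pool of total RNA. The labels give cell passages 27, 28 and 31 for day 6 pools 1 and 2 and passages 26, 28 and 29 for day 6 pool 3, and they give none for the day 10 pools. All pools come from 1 cell line, and nothing in the labels says that pools were separate cultures. The p-values below therefore measure only the spread between pools, which was estimated jointly over all 18 arrays in 6 groups.

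Embryoid bodies are floating aggregates of ES cells that have begun to differentiate. Neuroepithelium is the sheet of polarised progenitors from which the brain and spinal cord arise. Between these states cells shut down the ES cell programme, exchange E-cadherin for N-cadherin, and switch on SOX and PAX factors and the Notch effectors that keep neural progenitors undifferentiated. In arrays of bulk RNA, fewer cells of a type and less RNA per cell cannot be told apart.

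The values are array signals on the scale the authors deposited, and changes are differences of log2(signal + 16), day 10 minus day 6, given as estimate ± standard error. Signals are given for pools 1, 2 and 3 in that order. Low signals were raised in day 10 pool 2: its median signal was 50.8, against 31.4 and 31.9 in the other day 10 pools and 25.2 to 27.96 in the day 6 pools. In it 3612 genes lay under a signal of 16, against 4866 and 5282 in the other day 10 pools and 5370 to 5752 in the day 6 pools. Pool 2 of the bFGF and day 17 groups had raised medians too, at 48.7 to 49.9. The 3′ to 5′ ratio of the ACTB control probe sets, a measure of RNA integrity, was higher in pool 2 of both groups, at 2.32 in day 10 pool 2 and 2.64 in day 6 pool 2, against 1.49 to 1.74 on the other 4 arrays. The same ratio of the GAPDH control probe sets was lowest in pool 2 of both groups, at 0.876 in day 10 pool 2 and 1.01 in day 6 pool 2, against 1.01 to 1.16 on the other 4 arrays. Across genes, arrays correlated at 0.9208 to 0.9599 within day 10, at 0.9696 to 0.9783 within day 6 and at 0.9093 to 0.9558 between the groups, so the range within day 10 overlapped the range between the groups. The median standard deviation between pools was 0.385 log2 units at day 10 and 0.264 at day 6.

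Of 19775 genes, 1259 (6.37%) passed limma's test at a Benjamini-Hochberg adjusted p under 0.05, 737 of them (3.73%) higher and 522 (2.64%) lower at day 10. Of these, 901 differed at least 2-fold on this scale, 550 higher and 351 lower, and 18 higher and 19 lower genes at least 8-fold, each count with 1 long noncoding RNA gene that is not named here. The 3 day 10 arrays lay wholly above the 3 day 6 arrays for 13.6% of all genes and wholly below for 9.67%. The groups did not overlap for 1258 of the 1259 genes, the exception being PRELP, a matrix proteoglycan named here because it was the only one. The median change over all genes was 0.09, and quantile scaling, which moved it to -0.02, gave 598 higher and 623 lower genes. Without day 10 pool 2 the test found 555 higher and 406 lower genes, 894 of them among the 1259. When each of the 6 arrays was left out in turn, 654 genes kept their call every time, and a gene named below as changed did so too unless the array that ended its call is given.

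The 3 marker genes of the 2 states separated the groups on every array. HES5, a Notch-induced repressor that keeps neural progenitors from differentiating, had signals of 1973, 551 and 4191 at day 10, against 75.3, 4.76 and 72.1 at day 6 (log2 change 4.93 ± 0.75, adjusted p = 0.000506). SOX1, a transcription factor that marks neuroectoderm, had 736, 401 and 699 at day 10, against 57.7, 61.5 and 49.5 at day 6 (log2 change 3.08 ± 0.31, adjusted p = 9.58e-06). CDH1, the E-cadherin of epithelial and ES cells, had 324, 445 and 270.2 at day 10, against 3475, 4439.7 and 3687 at day 6 (log2 change -3.44 ± 0.31, adjusted p = 4.06e-06). HES5 and SOX1 were high on all day 10 arrays and CDH1 on all day 6 arrays, with no overlap. Day 10 pool 2 had the lowest HES5 and SOX1 and the highest CDH1 of the 3 day 10 pools.

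**Figure D1:**
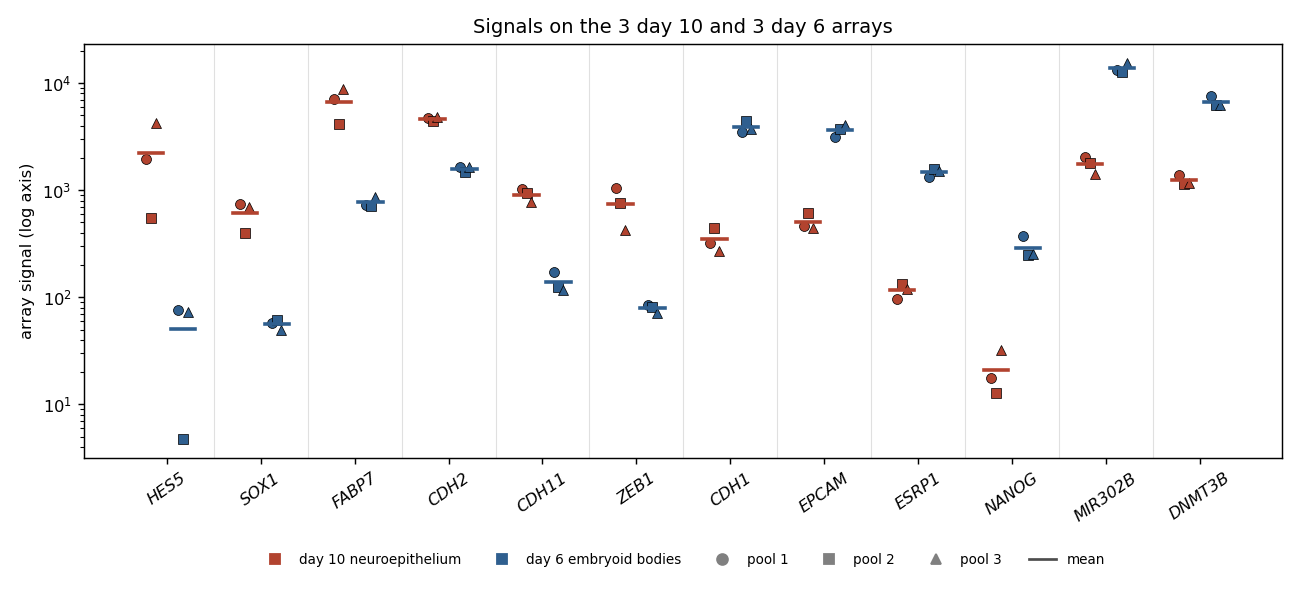
Signals (vertical log axis) of 12 genes on each array, with day 10 neuroepithelium on the left and day 6 embryoid bodies on the right of each gene. Symbols are pools 1 to 3 and lines are group means. The first 6 genes lie above and the last 6 below their day 6 values on all 3 day 10 arrays.

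Of 26 measured neural progenitor transcription factors, 13 rose and 1 fell, with a median change of 0.93 (12 and 1 without day 10 pool 2). The lists here share 29 genes among them, and their members were chosen with earlier results of these data known. Over all genes 3.73% were called higher and 2.64% lower, and the shares of the lists may partly follow from that choice. Within the SOX family, SOX3, the X-linked relative of SOX1 in neural progenitors, had 635, 551 and 1229 at day 10, against 241, 157 and 209.8 at day 6 (log2 change 1.84 ± 0.32, adjusted p = 0.00148), all day 10 values above all day 6 values. The partner factor SOX2, which ES cells also use, had 8529.5, 8776 and 11094 at day 10, against 9236, 8270.1 and 9584 at day 6 (log2 change 0.06 ± 0.17, adjusted p = 0.887), and SOX21, a repressor that opposes SOX2 and SOX3 targets, had a change of -0.05 ± 0.33 (adjusted p = 0.955). So of the SOXB genes measured here SOX1 and SOX3 passed the test, while the arrays of both groups overlapped for SOX2. SOX9 (1.50), which later gives progenitors glial competence, and SOX11 (0.82) also rose, and SOX4 (0.62) did not pass. The calls of 2 of these depended on single arrays. SOX9 lost its call without day 10 pool 1 or 3 (adjusted p 0.0501 to 0.0559). SOX11 lost its call without any 1 of the 6 arrays (adjusted p 0.052 to 0.127).

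PAX6, a determinant of human neuroectoderm, forebrain and eye, had 1875, 1869.8 and 2585 at day 10, against 881, 589 and 706 at day 6 (log2 change 1.52 ± 0.26, adjusted p = 0.00121), with no overlap. ZIC1, a zinc finger factor of the neural plate, had 2006, 528 and 1033 at day 10, against 132, 46.7 and 98.1 at day 6 (log2 change 3.36 ± 0.49, adjusted p = 0.000352), and day 10 pool 2 was again the lowest of the day 10 arrays, still above day 6. NR2F1, an orphan nuclear receptor that patterns the cortex, had 887, 976 and 648 at day 10, against 79.8, 199.7 and 156 at day 6 (log2 change 2.46 ± 0.37, adjusted p = 0.000498). The LIM factor LHX2 of eye field and cortex had 4056, 3191 and 4725 at day 10, against 1423, 601 and 913 at day 6 (log2 change 2.08 ± 0.29, adjusted p = 0.000253). POU3F3, a POU factor of neural progenitors, the retinal network member DACH1 and the homeobox cofactors MEIS1 and MEIS2 rose (log2 changes 1.72 to 2.04, adjusted p 2.49e-05 to 0.00144). SALL3, a spalt zinc finger gene, was the 1 member that fell, with 358, 237 and 173 at day 10, against 757, 760.02 and 653 at day 6 (log2 change -1.50 ± 0.26, adjusted p = 0.00164). ZIC2 (-0.42), ZIC5 (-0.37), PAX3 (-0.06), HMGA2 (0.21), SALL1 (-0.43) and TCF7L1 (-0.49) did not pass. POU3F2 rose by 1.31. POU3F2 lost its call without any 1 of the 6 arrays (adjusted p 0.0703 to 0.215).

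Among 17 measured forebrain and eye field genes, 3 rose and 3 fell (3 and 1 without day 10 pool 2), beside 3.73% and 2.64% of all genes. Their median was 0.37. SIX6, a homeobox gene of the eye field, had 427, 214 and 469.5 at day 10, against 61.98, 34.9 and 53.2 at day 6 (log2 change 2.50 ± 0.35, adjusted p = 0.000215). LMO3, a LIM-only cofactor, had 719, 612 and 616 at day 10, against 188, 157 and 213 at day 6 (log2 change 1.72 ± 0.24, adjusted p = 0.00025). HESX1, an early anterior neural repressor needed for the pituitary and eyes, went the other way, with 577, 301 and 267 at day 10, against 2712, 2545 and 3074 at day 6 (log2 change -2.89 ± 0.32, adjusted p = 2.87e-05). HESX1 was thus high on every day 6 array and low on every day 10 array, while SIX6 and LMO3 were high at day 10. OTX2, which marks the anterior neural plate and is also active in ES cells, changed by -0.24 ± 0.27 (adjusted p = 0.692). SIX3, an eye field homeobox gene, changed by 0.31 ± 0.32 and EMX2, of the dorsal cortex, by 0.88 ± 0.39, and neither passed. The calls of FEZF2 (2.02), LHX5 (-1.78) and DLX5 (-1.81) rested on single arrays. FEZF2 lost its call without day 10 pool 1 or 3 or day 6 pool 2 (adjusted p 0.0669 to 0.0727). LHX5 lost its call without day 10 pool 2 or 3 or day 6 pool 1 (adjusted p 0.0578 to 0.0764). DLX5 lost its call without day 10 pool 2 or day 6 pool 1, 2 or 3 (adjusted p 0.0565 to 0.085).

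Of 19 midbrain, hindbrain and posterior genes, 1 rose and 3 fell (0 and 3 without day 10 pool 2), beside 3.73% and 2.64% of all genes. The HOX and CDX genes, which mark the hindbrain, spinal cord and trunk, gave 0 calls of 9, where 6.37% of all genes were called, with changes of -0.57 to 0.75. The Iroquois genes IRX1 and IRX2, which pattern the neural plate behind the forebrain, fell. IRX1 had 114, 118 and 67.1 at day 10, against 452, 481 and 312 at day 6 (log2 change -1.91 ± 0.25, adjusted p = 0.000117). IRX2 had 197, 182 and 167 at day 10, against 621, 659 and 608 at day 6 (log2 change -1.71 ± 0.29, adjusted p = 0.0011), both without overlap. IRX3 (-0.12), PAX2 (0.01) and PAX5 (0.03) did not pass. The rise of PAX8 (1.23) and the fall of EN2 (-0.85), a midbrain and hindbrain boundary gene, were lost with single arrays. PAX8 lost its call without day 10 pool 2 or 3 or day 6 pool 2 or 3 (adjusted p 0.0644 to 0.109). EN2 lost its call without day 10 pool 1 or 3 or day 6 pool 1, 2 or 3 (adjusted p 0.0697 to 0.18).

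Notch signalling passes between neighbouring cells. Delta or Jagged ligands on one cell bind a Notch receptor on the next. The bound receptor is then cleaved, and its released part joins the DNA-binding protein RBPJ at HES and HEY genes. Of 31 measured Notch pathway genes, 8 rose and 2 fell, with a median of 0.45 (7 and 1 without day 10 pool 2). Among the ligands, DLL1 had 1313, 519.7 and 1112 at day 10, against 351, 285 and 286 at day 6 (log2 change 1.53 ± 0.37, adjusted p = 0.0172). DLK1, an atypical ligand, had 17227, 13208 and 31442 at day 10, against 7399, 4038 and 7121 at day 6 (log2 change 1.69 ± 0.38, adjusted p = 0.0125), while DLL3 (0.78), JAG1 (0.54), JAG2 (0.31) and DLL4 (-0.15) did not pass. Of the receptors NOTCH1 had 269, 329 and 198 at day 10, against 115, 132 and 127 at day 6 (log2 change 0.97 ± 0.23, adjusted p = 0.0167), and NOTCH2 (0.45), NOTCH3 (-0.23) and NOTCH4 (0.54) did not pass. Both ligands and NOTCH1 lay above day 6 on every day 10 array, yet their calls depended on single arrays. DLL1 lost its call without day 10 pool 1 or 3 or day 6 pool 2 or 3 (adjusted p 0.0654 to 0.0827). DLK1 lost its call without day 10 pool 3 or day 6 pool 2 (adjusted p 0.0693 to 0.0742). NOTCH1 lost its call without day 10 pool 1 or 2 or day 6 pool 1 or 3 (adjusted p 0.0539 to 0.0868). Of the modulators, LFNG, a Fringe enzyme that tunes receptors towards Delta, had 521, 854 and 551 at day 10, against 246, 239 and 201 at day 6 (log2 change 1.40 ± 0.28, adjusted p = 0.0048). MAML2, a coactivator of the Notch complex, had 137, 146 and 90.7 at day 10, against 27.2, 39.3 and 46.5 at day 6 (log2 change 1.38 ± 0.29, adjusted p = 0.00665). Both were higher without overlap, whereas RBPJ itself changed by -0.13 ± 0.18 (adjusted p = 0.749), MIB1 by 0.45 ± 0.21 and MAML1 by -0.23 ± 0.22, and these 3 did not pass.

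The effectors split. HES4, a HES5 relative, had 292, 164 and 367 at day 10, against 46.97, 4.43 and 6.85 at day 6 (log2 change 3.17 ± 0.49, adjusted p = 0.000553). HES1 had 2122, 1213 and 3171 at day 10, against 753, 458 and 764 at day 6 (log2 change 1.63 ± 0.43, adjusted p = 0.0327), each without overlap. HEY2, another Notch effector, had 9.99, 42.1 and 18.9 at day 10, against 104, 107 and 101 at day 6 (log2 change -1.68 ± 0.39, adjusted p = 0.0144). ID1, an inhibitor of bHLH factors and a BMP target, had 1616, 1330.5 and 1656 at day 10, against 2796, 3918 and 3465 at day 6 (log2 change -1.13 ± 0.28, adjusted p = 0.0228), both lower at day 10. HES6 (0.13), HES7 (0.56), HES2 (-0.48), HEY1 (0.31), HEYL (0.37) and ID3 (-0.56) did not pass. HES5 and HES4 kept their calls with each array left out, and the other 3 did not. HES1 lost its call without day 10 pool 1 or 3 or day 6 pool 1, 2 or 3 (adjusted p 0.0643 to 0.142). HEY2 lost its call without day 10 pool 1 or 3 or day 6 pool 2 (adjusted p 0.0512 to 0.0724). ID1 lost its call without day 10 pool 1 or 2 or day 6 pool 2 or 3 (adjusted p 0.0513 to 0.0988).

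Because these effectors are read out through RBPJ sites, the 250 bases before the RefSeq start site of the 3 HES genes that rose are printed 5′ to 3′ on the gene's strand (GRCh38.p14), with each match to TGGGAA or its reverse complement TTCCCA, the core of the RBPJ site, in capitals. HES5 (chr1:2530264-2530513, minus strand) had matches starting 224 and 80 bases before the start, HES4 (chr1:1000098-1000347, minus strand) had 1 at 76 bases, and HES1 (chr3:194135898-194136147, plus strand) had 2 at 84 and 70 bases. A match was found in 20.8% of 35116 RefSeq promoter windows of this length, and is a description of the sequence, not evidence of binding.
HES5: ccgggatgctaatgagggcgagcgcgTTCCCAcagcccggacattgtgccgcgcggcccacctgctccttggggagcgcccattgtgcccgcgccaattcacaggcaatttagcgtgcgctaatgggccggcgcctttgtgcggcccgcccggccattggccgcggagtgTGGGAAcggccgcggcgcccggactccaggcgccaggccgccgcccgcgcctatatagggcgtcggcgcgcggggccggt
HES4: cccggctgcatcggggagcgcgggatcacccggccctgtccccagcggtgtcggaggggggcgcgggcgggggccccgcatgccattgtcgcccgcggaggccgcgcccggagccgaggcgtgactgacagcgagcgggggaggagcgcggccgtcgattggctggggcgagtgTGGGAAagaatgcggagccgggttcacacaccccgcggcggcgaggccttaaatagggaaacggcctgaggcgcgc
HES1: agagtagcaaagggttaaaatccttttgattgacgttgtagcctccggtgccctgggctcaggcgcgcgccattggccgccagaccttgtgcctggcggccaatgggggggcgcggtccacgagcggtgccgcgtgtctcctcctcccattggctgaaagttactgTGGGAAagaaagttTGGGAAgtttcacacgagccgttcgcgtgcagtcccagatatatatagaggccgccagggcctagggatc

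**Figure D2:**
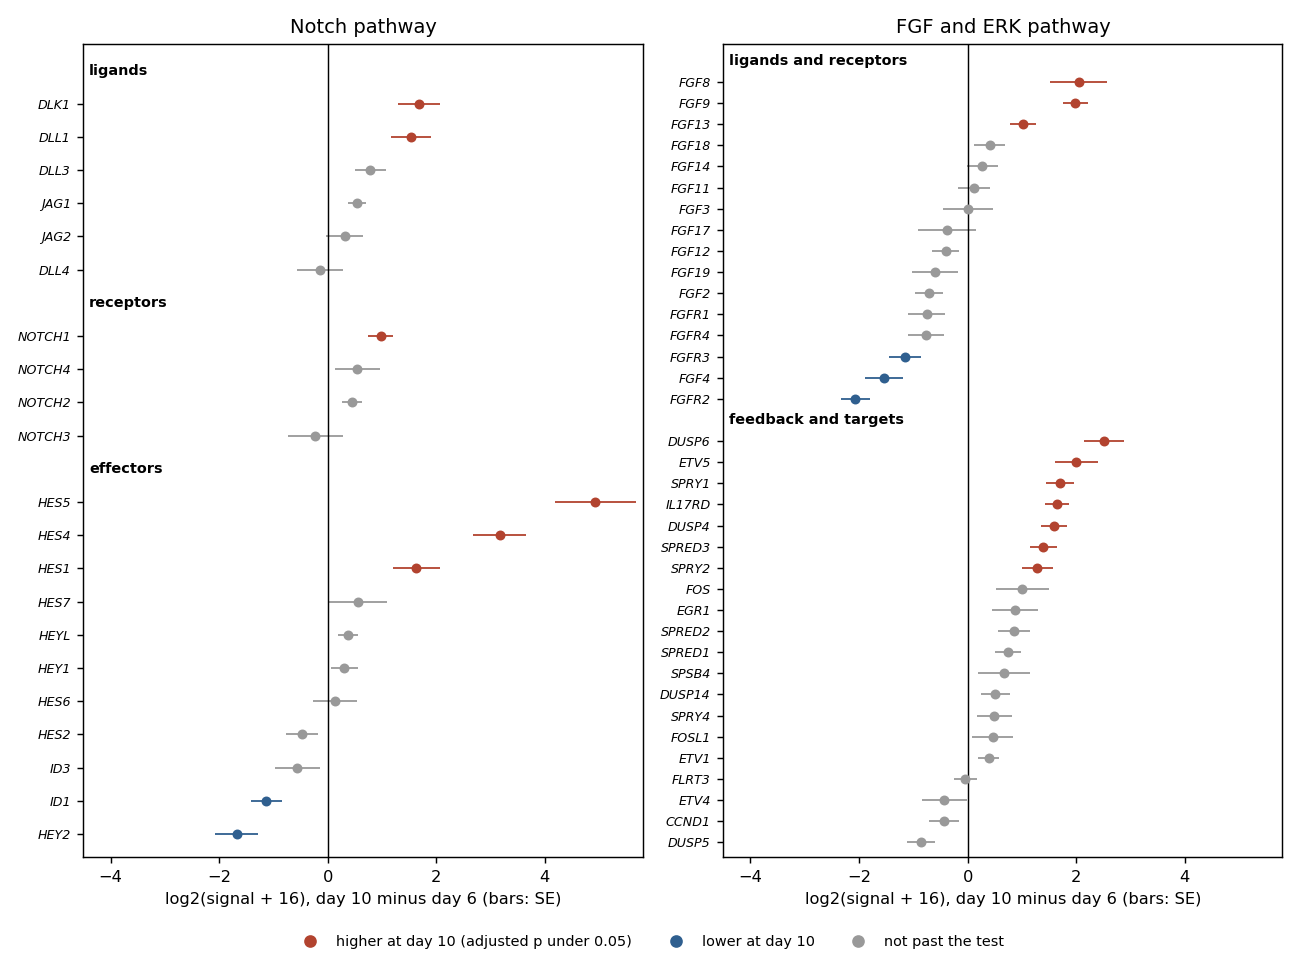
Change in log2(signal + 16), day 10 minus day 6, of each measured Notch ligand, receptor and effector (left) and each FGF pathway gene (right), with standard errors as bars. Red points passed the test upwards, blue points downwards and grey points did not pass, and HES5 at 4.93 and FGFR2 at -2.07 stand at the ends.

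Of 20 radial glia and progenitor markers, 5 rose and 0 fell, with a median of 0.72. FABP7, the fatty acid binding protein of radial glia, had 7045, 4119 and 8796 at day 10, against 722, 719 and 867 at day 6 (log2 change 3.02 ± 0.26, adjusted p = 2.52e-06). GPM6A, a neuronal and progenitor membrane glycoprotein, had 426, 446 and 447 at day 10, against 48.9, 43.3 and 51.4 at day 6 (log2 change 2.84 ± 0.16, adjusted p = 6e-08). LIX1 had 1058, 1093 and 1188 at day 10, against 428, 390.4 and 519.9 at day 6 (log2 change 1.30 ± 0.25, adjusted p = 0.00318). These 3 were higher on every day 10 array, but NES, the progenitor intermediate filament nestin, changed by 0.12 ± 0.49 (adjusted p = 0.925), PTPRZ1 by 0.50 ± 0.33 and PROM1 by 0.08 ± 0.21, none past the test. VIM (1.31), the filament vimentin, and GLI3 (0.85) rose but depended on single arrays. VIM lost its call without day 10 pool 3 or day 6 pool 2 (adjusted p 0.064 to 0.0642). GLI3 lost its call without day 10 pool 1 or day 6 pool 1 or 3 (adjusted p 0.0855 to 0.103).

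Of 38 neuronal genes, 10 rose and 3 fell, with a median of 0.44 (7 and 2 without day 10 pool 2, 6 and 3 after quantile scaling). MAP2, a microtubule protein of dendrites, had 2822, 1865 and 1267 at day 10, against 577, 475 and 532 at day 6 (log2 change 1.81 ± 0.30, adjusted p = 0.000997). DCX, the doublecortin of migrating neuroblasts, had 558, 402 and 388 at day 10, against 206, 178 and 132 at day 6 (log2 change 1.31 ± 0.26, adjusted p = 0.0052). The stathmin STMN4 and the reticulon RTN1 rose by 1.43 and 1.37 (adjusted p = 0.000789 and 0.000761), and the RNA-binding ELAVL4 by 1.65. Against these, SCG3, a secretory granule protein, had 44.5, 39.8 and 13.4 at day 10, against 155, 227 and 205 at day 6 (log2 change -2.18 ± 0.41, adjusted p = 0.00279). DPYSL3, a growth cone protein, had 1944, 1358 and 2069 at day 10, against 5499, 4029.8 and 4964 at day 6 (log2 change -1.44 ± 0.24, adjusted p = 0.00115). TUBB3, the neuronal tubulin, changed by 0.03 ± 0.40, CRMP1 by -0.03 ± 0.33 and STMN2 by 1.05 ± 0.35, and none of these passed. Of 15 proneural and commitment factors, 2 rose, EBF3 (1.27) and EBF1 (1.14), both calls lost after quantile scaling (0 of 15), and INSM1 (0.21), ISL1 (-0.84) and EOMES (-0.52) did not pass. EBF3 lost its call without day 10 pool 1 or 2 or day 6 pool 1, 2 or 3 (adjusted p 0.0815 to 0.143). EBF1 lost its call without day 10 pool 1 or day 6 pool 1 or 2 (adjusted p 0.0666 to 0.0871). ELAVL4 lost its call without day 10 pool 2 (adjusted p 0.0507).

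Axon guidance genes, which steer growth cones and also divide up the neuroepithelium, rose in 8 of 36 cases and fell in 1, with a median of 0.30 (5 and 1 without day 10 pool 2, 6 and 3 after quantile scaling). NTN4, a netrin of basement membranes, had 199, 286 and 157 at day 10, against 5.45, 20.8 and 23.9 at day 6 (log2 change 2.82 ± 0.30, adjusted p = 1.74e-05). SEMA5A, a semaphorin, had 466, 422 and 459.5 at day 10, against 141, 114 and 92.2 at day 6 (log2 change 1.83 ± 0.18, adjusted p = 8.72e-06). SLIT2, a repellent of Robo-bearing axons, had 362, 266 and 215 at day 10, against 48.9, 101 and 67.5 at day 6 (log2 change 1.76 ± 0.26, adjusted p = 0.000465). EFNB1, an ephrin, had 150.2, 168 and 157 at day 10, against 65.2, 56.04 and 40.9 at day 6 (log2 change 1.33 ± 0.26, adjusted p = 0.00383). All 4 were higher on every day 10 array. ROBO1 (-0.21), EFNB2 (0.33) and EPHA4 (0.30) did not pass. The calls of the netrin receptors UNC5C (1.26) and UNC5B (-1.20) rested on single arrays. UNC5C lost its call without day 10 pool 2 or day 6 pool 1 (adjusted p 0.0539 to 0.0566). UNC5B lost its call without day 10 pool 1 or 3 or day 6 pool 1, 2 or 3 (adjusted p 0.0524 to 0.128).

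ES cells keep their identity through a circuit of transcription factors, a dedicated microRNA cluster and a high output of the methyltransferase DNMT3B. Of 29 measured pluripotency genes, 13 fell and 1 rose, with a median of -0.79 (12 and 1 without day 10 pool 2). NANOG had 17.7, 12.7 and 32.3 at day 10, against 370.3, 246 and 255 at day 6 (log2 change -3.07 ± 0.31, adjusted p = 1e-05). PRDM14, a repressor of differentiation genes, had 5.94, 21.6 and 9.74 at day 10, against 331, 165 and 172 at day 6 (log2 change -3.04 ± 0.43, adjusted p = 0.000257). ZFP42 had 33.6, 51.1 and 25.9 at day 10, against 333, 591 and 518 at day 6 (log2 change -3.22 ± 0.25, adjusted p = 8.06e-07). KLF4, one of the reprogramming factors, had 49.5, 41.01 and 18.6 at day 10, against 344, 354 and 337 at day 6 (log2 change -2.84 ± 0.31, adjusted p = 2.3e-05). All 4 were lower on every day 10 array. Probe sets annotated to the copies POU5F1P4, POU5F1P3 and POU5F1B fell (log2 changes -3.54 to -3.43), and because these copies are near-identical to each other and to their parent gene the signal cannot be assigned to 1 of them. FOXO1, a regulator of human ES cell identity, had a change of -1.32 ± 0.19. OTX2 (-0.24), ETV4 (-0.43) and FOXD3 (-0.17) did not pass. Among surface and other genes, the RNA-binding L1TD1 had 1369, 1038 and 322 at day 10, against 4787, 5221 and 4429.8 at day 6 (log2 change -2.61 ± 0.49, adjusted p = 0.003), and the podocalyxin gene PODXL, the telomere protein TERF1, the tetraspanin CD9 and the neuropeptide gene GAL fell (log2 changes -2.21 to -1.60). LIN28A, the blocker of let-7 maturation, changed by -0.41 ± 0.24 and LIN28B by 0.10 ± 0.18 (adjusted p = 0.407 and 0.829), with neither past the test, and TRIM71 (-0.71) did not pass either. SFRP2 (1.12) was the 1 member that rose, and the calls of it and of SALL4 (-0.91) rested on single arrays. SALL4 lost its call without day 10 pool 1 or 2 or day 6 pool 1, 2 or 3 (adjusted p 0.064 to 0.132). SFRP2 lost its call without day 10 pool 3 or day 6 pool 2 or 3 (adjusted p 0.0813 to 0.095).

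The probe set annotated to MIR302B, a host transcript of the miR-302 cluster of ES cells, had 2027, 1806 and 1422 at day 10, against 13170.00, 12771 and 15450.00 at day 6 (log2 change -2.98 ± 0.22, adjusted p = 4.67e-07), high on all day 6 arrays and low on all day 10 arrays. The array reads the transcript and not the mature microRNAs. Their sequences are shown because 4 of the 5 share the seed that selects targets, bases 2 to 8 in capitals (RefSeq, GRCh38.p14, all on chromosome 4, minus strand). The seed of the 4 miR-302 members is AAGUGCU, and that of miR-367 is AUUGCAC.
hsa-miR-302a-3p: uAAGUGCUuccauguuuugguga
hsa-miR-302b-3p: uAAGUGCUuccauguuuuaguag
hsa-miR-302c-3p: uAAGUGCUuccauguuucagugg
hsa-miR-302d-3p: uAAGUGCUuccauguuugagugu
hsa-miR-367-3p: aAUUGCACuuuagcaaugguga

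Of 20 chromatin and DNA methylation genes, 4 fell and 0 rose, beside 2.64% and 3.73% of all genes, with a median of -0.21. DNMT3B, a de novo DNA methyltransferase, had 1385, 1147 and 1165 at day 10, against 7490.00, 6271 and 6174 at day 6 (log2 change -2.42 ± 0.19, adjusted p = 7.88e-07). Its relative DNMT3A had 889.98, 690.4 and 757 at day 10, against 1657, 1374 and 1419.7 at day 6 (log2 change -0.92 ± 0.20, adjusted p = 0.00857). PHC1, a Polycomb subunit, had 462, 356 and 401 at day 10, against 1494, 1262 and 1192 at day 6 (log2 change -1.66 ± 0.21, adjusted p = 8.05e-05). These 3 were lower on every day 10 array. The maintenance methyltransferase DNMT1 changed by -0.54 ± 0.29 (adjusted p = 0.345), and DNMT3L (-0.11), TET2 (-0.06) and TET3 (-0.19) did not pass either. TET1, which oxidises methylcytosine, had 1008, 777 and 503 at day 10, against 1424, 1619.5 and 1572 at day 6 (log2 change -1.05 ± 0.27, adjusted p = 0.029), without overlap. TET1 lost its call without day 10 pool 2 or 3 or day 6 pool 1, 2 or 3 (adjusted p 0.0633 to 0.133). JARID2 (-0.69), SMARCA1 (0.06) and KDM5B (-0.02) did not pass, nor did EZH2 (0.15), the methyltransferase of Polycomb.

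Epithelial cells are held together by E-cadherin junctions, tight junctions and desmosomes, under the control of GRHL and OVOL factors and the splicing factor ESRP1, which ZEB1 represses. Of 53 measured genes of this programme and its repressors, 18 fell and 2 rose, with a median of -0.61 (13 and 2 without day 10 pool 2). The repressors counted are ZEB1, ZEB2, SNAI1, SNAI2 and TWIST1, and ZEB1 is 1 of the 2 that rose. EPCAM, the epithelial adhesion molecule, had 465, 609 and 448 at day 10, against 3157, 3701 and 4033 at day 6 (log2 change -2.81 ± 0.19, adjusted p = 1.83e-07). ESRP1 had 95.4, 133 and 119 at day 10, against 1333, 1572 and 1519 at day 6 (log2 change -3.51 ± 0.24, adjusted p = 1.83e-07). AP1M2, the clathrin adaptor subunit of polarised epithelia, had 32.4, 19.2 and 62.96 at day 10, against 432, 273 and 286 at day 6 (log2 change -2.73 ± 0.39, adjusted p = 0.000287). ZEB1 had 1056, 751 and 427 at day 10, against 84.5, 81.1 and 70.8 at day 6 (log2 change 2.92 ± 0.32, adjusted p = 2.12e-05), in the opposite direction. ESRP1 was thus high on the day 6 arrays and ZEB1 on the day 10 arrays, each without overlap. ZEB2 changed by 0.17 ± 0.29, TWIST1 by 0.44 ± 0.41, SNAI1 by -0.13 ± 0.42 and SNAI2 by 0.37 ± 0.37, and none of these other repressors of E-cadherin passed the test.

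Of the epithelial regulators, GRHL3 had 38.3, 13.6 and 26.5 at day 10, against 177, 150.3 and 183 at day 6 (log2 change -2.18 ± 0.28, adjusted p = 0.000107). OVOL2 had 40.1, 61.7 and 35.6 at day 10, against 111, 130.1 and 141 at day 6 (log2 change -1.23 ± 0.23, adjusted p = 0.00326). RBM47, an RNA-binding protein, had 85.7, 107 and 77.2 at day 10, against 251, 382 and 309 at day 6 (log2 change -1.63 ± 0.25, adjusted p = 0.000465). The claudin CLDN7, the desmosomal cadherin DSG2 and the traffic protein MAL2 fell (log2 changes -1.86 to -1.39, adjusted p 0.000274 to 0.00646). A claudin, CLDN1, rose, with 155, 192 and 221 at day 10, against 50.6, 82.7 and 61.6 at day 6 (log2 change 1.35 ± 0.22, adjusted p = 0.000804). Of the other junction genes TJP1 (-0.29), DSP (-0.91) and DSC2 (-0.61) did not pass, nor did PROM2 (0.36), LAD1 (0.03) and ST14 (-0.90). The 7 keratins gave 0 calls, where 6.37% of all genes were called, too few genes to tell apart from that share. The brightest were KRT8 (-0.16), KRT18 (-0.40) and KRT19 (-0.97). In the same direction, CLDN6 (-2.43), MARVELD3 (-1.46), GRHL2 (-1.26), SPINT1 (-2.23), RAB25 (-1.42), SPINT2 (-1.21) and PRSS8 (-1.18) fell with calls that rested on single arrays. CLDN6 lost its call without day 10 pool 1 or 2 or day 6 pool 1 or 3 (adjusted p 0.0797 to 0.174). MARVELD3 lost its call without day 10 pool 1 or 3 or day 6 pool 1, 2 or 3 (adjusted p 0.0914 to 0.134). GRHL2 lost its call without day 10 pool 1 or 3 or day 6 pool 2 or 3 (adjusted p 0.0881 to 0.102). SPINT1 lost its call without day 10 pool 1 or 2 or day 6 pool 1 or 3 (adjusted p 0.0766 to 0.185). RAB25 lost its call without day 10 pool 1 or 2 or day 6 pool 1 or 3 (adjusted p 0.0826 to 0.144). SPINT2 lost its call without day 10 pool 2 or day 6 pool 1 or 3 (adjusted p 0.0609 to 0.0704). PRSS8 lost its call without day 10 pool 1 or day 6 pool 1 (adjusted p 0.052 to 0.0647).

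Among 22 neural and mesenchymal cadherins and adhesion genes, 5 rose and 4 fell. CDH2, the N-cadherin of neuroepithelium, had 4678, 4455 and 4773 at day 10, against 1638, 1462 and 1631 at day 6 (log2 change 1.55 ± 0.16, adjusted p = 1.45e-05), with the 3 day 10 values close together and far above day 6. CDH11, a cadherin of mesenchyme and parts of the neural tube, had 1019.7, 933 and 768 at day 10, against 171, 125 and 118 at day 6 (log2 change 2.59 ± 0.22, adjusted p = 2.18e-06). Protocadherins went both ways, PCDH9 with 116, 194 and 119 at day 10, against 32.9, 38.7 and 35.9 at day 6 (log2 change 1.59 ± 0.34, adjusted p = 0.00757) and PCDH10 with 33.4, 26.8 and 17.6 at day 10, against 87.4, 128 and 129 at day 6 (log2 change -1.64 ± 0.22, adjusted p = 0.000196). CNTN1, a contactin of axons, fell by 1.60. CADM1 (0.30), PCDH7 (0.54) and CDH6 (-0.36) did not pass. PCDH19 rose by 1.18, a call lost with single arrays. PCDH19 lost its call without day 10 pool 1 or day 6 pool 1 or 2 (adjusted p 0.0512 to 0.0941).

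**Figure D3:**
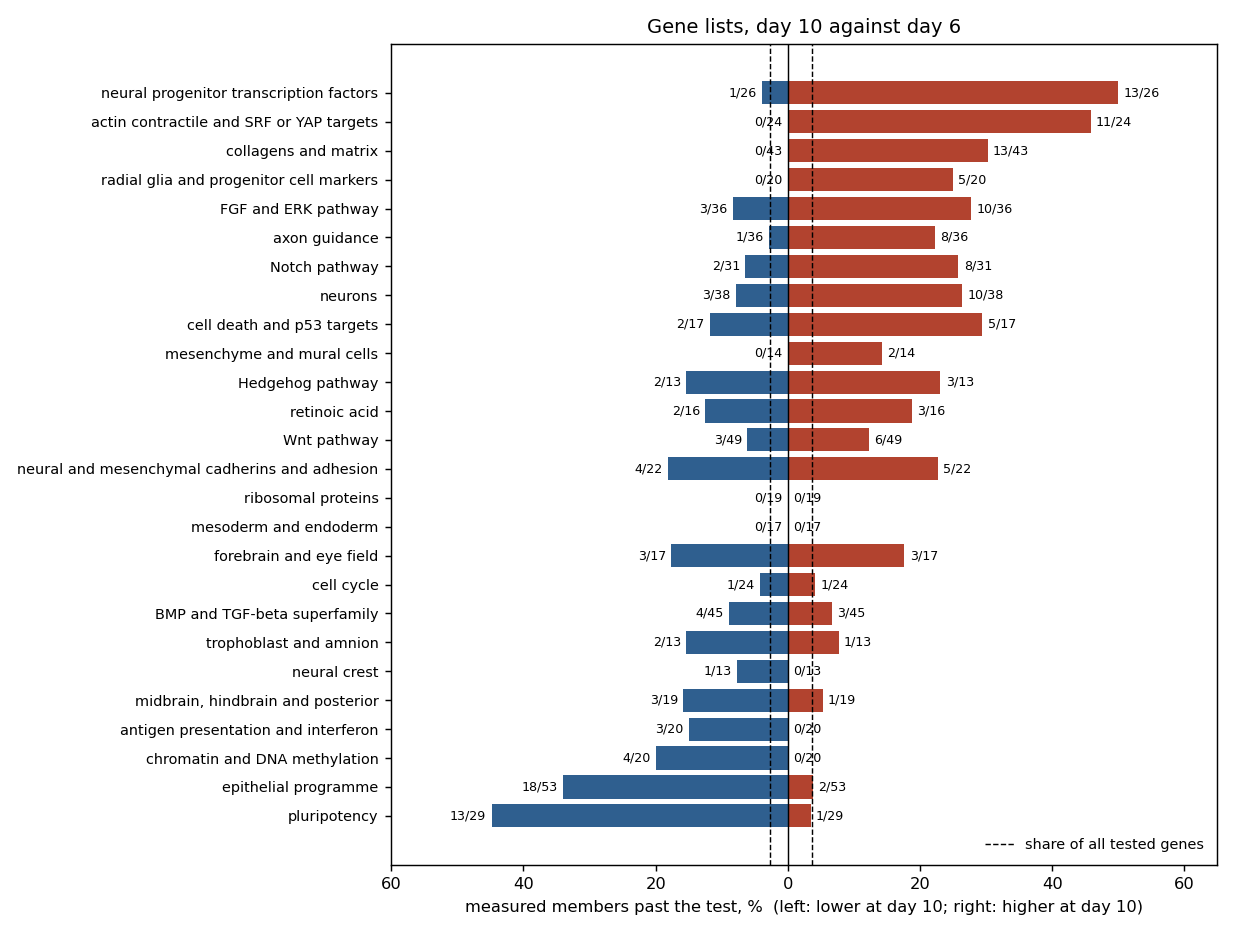
Share of each list's measured members that passed the test, in percent, with members higher at day 10 to the right and members lower at day 10 to the left. Numbers give members called over members measured, and dashed lines mark the share of all tested genes (3.73% higher, 2.64% lower). Neural progenitor factors reach furthest to the right (13 of 26) and pluripotency genes furthest to the left (13 of 29). Members were chosen with earlier results of these data known, and the epithelial list includes repressors of E-cadherin.

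YAP and TAZ, with their DNA-binding partner TEAD, and the serum response factor SRF are transcription regulators that respond to cell tension, spreading and actin assembly. Of 24 measured contractile genes and targets of these regulators, 11 rose and 0 fell, with a median of 1.02. The targets alone gave 8 of 9 (6 without day 10 pool 2, 6 after quantile scaling). Members were picked with earlier results of these data known, so these shares may partly follow from that choice. CCN1, a secreted matricellular target of YAP, had 1189.8, 1319.9 and 1371 at day 10, against 192, 360.1 and 279 at day 6 (log2 change 2.20 ± 0.29, adjusted p = 0.000154). Its relative CCN2 had 1715, 1489 and 1679 at day 10, against 208, 280.1 and 214 at day 6 (log2 change 2.73 ± 0.24, adjusted p = 3.1e-06). ANKRD1, a muscle ankyrin and YAP target, had 176, 199.6 and 161 at day 10, against 15.5, 20.5 and 8.28 at day 6 (log2 change 2.68 ± 0.32, adjusted p = 5.05e-05). AMOTL2, which feeds back on YAP, had 902, 989 and 1089.5 at day 10, against 329, 349 and 386 at day 6 (log2 change 1.44 ± 0.22, adjusted p = 0.00052). All 4 were higher on every day 10 array. NPPB, the natriuretic peptide gene, had 444, 278 and 439.7 at day 10, against 6.69, 9.38 and 12.99 at day 6 (log2 change 3.95 ± 0.37, adjusted p = 4.9e-06). EMP1, a membrane protein, had 154, 233 and 285 at day 10, against 0.857, 3.81 and 0.593 at day 6 (log2 change 3.72 ± 0.49, adjusted p = 0.000138), with all day 6 values under the added 16. AXL (1.00) did not pass. Of the muscle proteins, ACTA2, smooth muscle actin, had 1887, 1521 and 2396 at day 10, against 185, 107 and 151 at day 6 (log2 change 3.58 ± 0.35, adjusted p = 7.28e-06). ACTC1, cardiac actin, had 2838, 2415 and 5250.00 at day 10, against 725, 576 and 756 at day 6 (log2 change 2.25 ± 0.39, adjusted p = 0.00135). TPM1 (0.47), CALD1 (0.32) and TPM2 (0.13) did not pass. Of the 4 measured markers fixed for cardiac and smooth muscle, ACTC1 rose, and MYH6, DES and MYH11 were under a signal of 50 on all 6 arrays. The summed signal of these 4 was 2496 to 5289 at day 10 and 613 to 777 at day 6. The part of muscle cells in these values was not tested. TAGLN, a smooth muscle actin-binding protein, rose by 2.43 and TGFB2 by 1.03, calls that rested on single arrays. TAGLN lost its call without day 10 pool 1 or 3 or day 6 pool 2 or 3 (adjusted p 0.0723 to 0.106). TGFB2 lost its call without day 10 pool 1 or 2 or day 6 pool 1, 2 or 3 (adjusted p 0.103 to 0.184).

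The 250 bases before the RefSeq start of CCN2 and ANKRD1 are shown for their matches to GGAATG or CATTCC, the letters of the TEAD motif, in capitals (GRCh38.p14, gene strand). CCN2 (chr6:131951373-131951622, minus strand) had matches 169, 104 and 95 bases before its start and ANKRD1 (chr10:90921088-90921337, minus strand) had 2 at 220 and 128 bases. AMOTL2 had 1 match in 1 of its 2 windows, and 11.9% of all 35116 windows held the motif. Whether any of these letters was bound was not measured.
CCN2: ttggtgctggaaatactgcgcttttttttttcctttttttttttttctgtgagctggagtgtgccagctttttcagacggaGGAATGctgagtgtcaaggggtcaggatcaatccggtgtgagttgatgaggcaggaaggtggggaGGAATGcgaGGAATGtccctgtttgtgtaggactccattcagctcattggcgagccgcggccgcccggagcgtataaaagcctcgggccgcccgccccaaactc
ANKRD1: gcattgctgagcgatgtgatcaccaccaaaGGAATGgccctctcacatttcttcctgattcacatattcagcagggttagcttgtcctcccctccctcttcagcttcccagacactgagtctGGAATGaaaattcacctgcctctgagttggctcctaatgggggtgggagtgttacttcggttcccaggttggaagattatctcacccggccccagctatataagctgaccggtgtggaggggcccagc

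Fibrillar collagen genes also rose. Of 43 collagens and matrix genes, 13 rose and 0 fell (10 and 2 without day 10 pool 2, 13 and 2 after quantile scaling), and all 7 of the 7 measured fibrillar collagens rose (5 without day 10 pool 2), with a median of 2.53. COL2A1, the collagen of cartilage and of the embryonic notochord and neural tube surface, had 3003, 1743 and 3595 at day 10, against 235, 241 and 237 at day 6 (log2 change 3.40 ± 0.37, adjusted p = 2.12e-05). COL11A1, its partner in fibrils, had 1295, 1270.2 and 469 at day 10, against 74.4, 58.5 and 72.96 at day 6 (log2 change 3.47 ± 0.38, adjusted p = 2.19e-05). COL1A1 had 1620.5, 2642 and 1359 at day 10, against 329, 291 and 362 at day 6 (log2 change 2.41 ± 0.27, adjusted p = 3.24e-05). COL1A2, the second chain of the same molecule, had 715, 811 and 748 at day 10, against 339, 357 and 385 at day 6 (log2 change 1.04 ± 0.20, adjusted p = 0.00345). COL5A2 had 899, 848 and 873 at day 10, against 114, 189 and 121 at day 6 (log2 change 2.53 ± 0.24, adjusted p = 5.88e-06). COL3A1 had 595, 1235 and 458 at day 10, against 90.4, 141 and 67.5 at day 6 (log2 change 2.67 ± 0.60, adjusted p = 0.0106). COL5A1 had 302, 255 and 176 at day 10, against 149, 112 and 103 at day 6 (log2 change 0.91 ± 0.25, adjusted p = 0.0421). No fibrillar collagen had overlapping groups. Day 10 pool 2 was highest for COL1A1 and COL3A1 and lowest for COL2A1.

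Of 16 other collagens, COL8A1 (2.67) and COL12A1 (1.61) rose, and the basement membrane chains COL4A6 (0.29), COL4A1 (0.36) and COL4A2 (0.86) did not pass. The matrix glycoproteins NID1, FBN1, SPON1 and SPARC rose (log2 changes 1.01 to 1.80, adjusted p 0.000214 to 0.0022), while FN1 (1.20), FBN2 (0.42) and VCAN (-0.50) did not pass. The calls of COL3A1, COL5A1 and COL12A1 rested on single arrays. COL3A1 lost its call without day 10 pool 2 or day 6 pool 3 (adjusted p 0.0556 to 0.0571). COL5A1 lost its call without day 10 pool 1 or 2 or day 6 pool 2 or 3 (adjusted p 0.123 to 0.164). COL12A1 lost its call without day 10 pool 1 or 2 or day 6 pool 2 or 3 (adjusted p 0.0918 to 0.116).

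Mesenchymal cells also make fibrillar collagens, so their markers are given beside these values. The summed signal of 5 markers fixed for mesenchyme and mural cells was 442 to 1759 at day 10, highest in pool 2, and 378 to 579 at day 6, and 0 of the 5 passed the test. Of the 14 genes on the longer mesenchyme list, 2 rose (1 without day 10 pool 2), RGS5, with 790.2, 985 and 607 at day 10, against 84.7, 186 and 141 at day 6 (log2 change 2.43 ± 0.29, adjusted p = 5.71e-05), and COL3A1, while PDGFRA (-0.20), THY1 (-0.21) and LUM (1.11) did not pass. TBX18 was under 50 on all 6 arrays. The part of such cells in the collagen values was not tested.

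**Figure D4:**
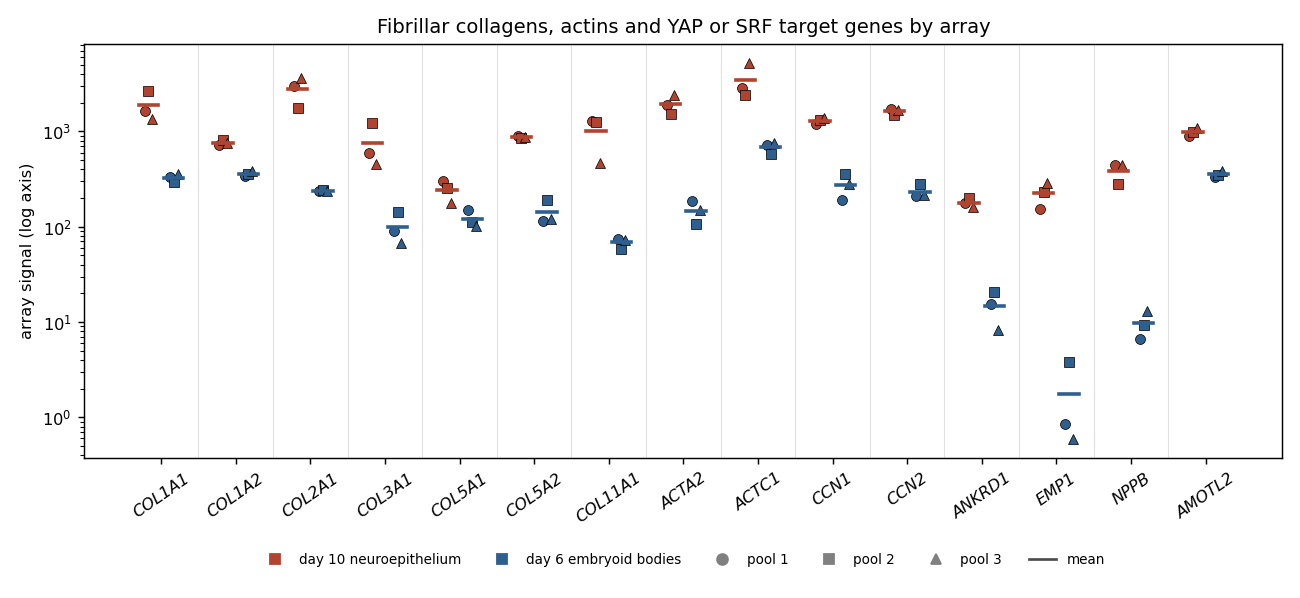
Signals (vertical log axis) of the 7 fibrillar collagens, 2 muscle actins and 6 target genes on each array, day 10 on the left and day 6 on the right of each gene, with pools as symbols and group means as lines. Day 10 pools lie above day 6 pools for every gene shown.

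Fibroblast growth factors bind FGF receptors and act through the kinase ERK, which switches on its own inhibitors, the Sprouty, Spred and DUSP genes, and the ETV factors. At day 10 no growth factor is named for these cells. Of 16 ligands and receptors, 3 rose and 3 fell, whereas of 20 feedback and target genes 7 rose and 0 fell (7 and 1 after quantile scaling), with medians of -0.39 and 0.80. The receptor FGFR2 had 382, 306 and 242 at day 10, against 1406, 1501 and 1128 at day 6 (log2 change -2.07 ± 0.27, adjusted p = 0.000113), lower on every day 10 array. FGFR3 had 216, 219 and 223 at day 10, against 424, 487 and 618 at day 6 (log2 change -1.14 ± 0.29, adjusted p = 0.0264), and FGFR1 (-0.75) and FGFR4 (-0.77) had changes in the same direction that did not pass. FGF9, a ligand, had 351, 392 and 346 at day 10, against 85.7, 80.3 and 72.9 at day 6 (log2 change 1.99 ± 0.24, adjusted p = 5.73e-05). FGF2, the ligand used in the bFGF cultures, changed by -0.71 ± 0.25, and FGF18 (0.40) did not pass either. FGF8, a ligand of brain organisers, had 181, 72.4 and 186 at day 10, against 41.4, 10.5 and 16.95 at day 6 (log2 change 2.05 ± 0.53, adjusted p = 0.0279). FGF4, an ES cell ligand, had 46.8, 79.7 and 36.5 at day 10, against 214, 176 and 159 at day 6 (log2 change -1.54 ± 0.35, adjusted p = 0.0128). FGF13 rose by 1.02. FGFR2 and FGF9 kept their calls with each array left out, and the other 4 called genes did not. FGF8 lost its call without day 10 pool 1 or 3 or day 6 pool 2 or 3 (adjusted p 0.0962 to 0.12). FGF13 lost its call without day 10 pool 3 or day 6 pool 1 or 2 (adjusted p 0.0553 to 0.0815). FGFR3 lost its call without day 10 pool 1, 2 or 3 or day 6 pool 2 or 3 (adjusted p 0.0671 to 0.128). FGF4 lost its call without day 10 pool 3 or day 6 pool 1 (adjusted p 0.0611 to 0.0642).

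All 7 called genes of the feedback and target list were higher at day 10. DUSP6, the ERK phosphatase, had 2219.8, 1208 and 2685 at day 10, against 307, 244 and 456 at day 6 (log2 change 2.52 ± 0.36, adjusted p = 0.000322). DUSP4, another, had 932, 613 and 1039 at day 10, against 245, 271 and 293 at day 6 (log2 change 1.59 ± 0.24, adjusted p = 0.000479). SPRY1, a Sprouty, had 859, 746 and 1152 at day 10, against 273, 216 and 325 at day 6 (log2 change 1.70 ± 0.26, adjusted p = 0.000461). ETV5 had 536, 307 and 813 at day 10, against 123, 105 and 121 at day 6 (log2 change 2.00 ± 0.39, adjusted p = 0.00434). The receptor antagonist IL17RD and the Spred gene SPRED3 rose by 1.64 and 1.40. All of these were higher on every day 10 array, while FLRT3 (-0.04), ETV1 (0.39) and CCND1 (-0.43), also targets, did not pass. The letters CCGGAA or TTCCGG of the ETS motif were found in 1 of 7 promoter windows of DUSP6, SPRY1, IL17RD and SPRED3, a window of SPRY1, and in 14.5% of all windows.

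Retinoic acid is made from retinal by ALDH1A enzymes and destroyed by CYP26 enzymes, and it gives the neural tube posterior character. Of 16 genes, 3 rose and 2 fell, beside 3.73% and 2.64% of all genes. CYP26A1 had 239.7, 261 and 328 at day 10, against 3954, 3473 and 4065 at day 6 (log2 change -3.73 ± 0.21, adjusted p = 4.87e-08). The synthesis enzyme ALDH1A2 had 38.9, 8.27 and 20.1 at day 10, against 425, 185 and 351 at day 6 (log2 change -3.14 ± 0.31, adjusted p = 7.28e-06), both high on all day 6 and low on all day 10 arrays. ALDH1A3, the enzyme of the ventral eye and forebrain, had 111, 224 and 170.2 at day 10, against 24.8, 33.3 and 22.8 at day 6 (log2 change 2.06 ± 0.31, adjusted p = 0.000507). ALDH1A1, of the dorsal eye, had 61.1, 218 and 102 at day 10, against 18.4, 10.3 and 1.14 at day 6 (log2 change 2.37 ± 0.56, adjusted p = 0.015). The synthesis enzymes therefore changed in opposite directions. The receptor and retinoic acid target RARB had 94.9, 181 and 222 at day 10, against 27.9, 60.6 and 51.2 at day 6 (log2 change 1.51 ± 0.31, adjusted p = 0.00635). CYP26B1 (0.23), RDH10 (-0.27) and DHRS3 (-1.23) did not pass, nor did CRABP2 (-0.00), RXRA (-0.01) and RXRB (0.31). The call of ALDH1A1 rested on 2 arrays. ALDH1A1 lost its call without day 10 pool 2 or day 6 pool 3 (adjusted p 0.0798 to 0.0802).

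BMP and TGF-beta family ligands act through SMAD proteins, and neural induction is known to need both branches held low. Of 45 genes, 3 rose and 4 fell, with a median of 0.13, beside 3.73% and 2.64% of all genes. Quantile scaling gave 3 and 7, with a median of -0.02. FOXH1, the DNA-binding partner of SMADs in Nodal signalling, had 7.41, 62.4 and 71.7 at day 10, against 539.6, 244 and 455 at day 6 (log2 change -2.91 ± 0.50, adjusted p = 0.0015). FST, the activin trap follistatin, had 363, 532 and 391 at day 10, against 999.9, 1429.6 and 1261 at day 6 (log2 change -1.49 ± 0.28, adjusted p = 0.00311). BMPR1B, a BMP receptor, had 202, 205 and 231 at day 10, against 27.1, 35.4 and 23.02 at day 6 (log2 change 2.37 ± 0.22, adjusted p = 5.68e-06). SMAD3 had 193, 239 and 335 at day 10, against 111, 84.3 and 93.97 at day 6 (log2 change 1.25 ± 0.26, adjusted p = 0.00636). The first 2 were lower and the last 2 higher on every day 10 array. The ligands BMP7 (0.79), BMP2 (-0.80) and GDF11 (0.14) and the antagonists and related genes FSTL1 (0.36), GREM1 (0.77) and CHRDL1 (0.17) did not pass, and neither did ID4 (0.14), ID2 (0.50) and TGFBR1 (0.61). MSX2, a BMP target, fell by 0.93. MSX2 lost its call without day 10 pool 1 or 2 or day 6 pool 1 or 2 (adjusted p 0.0597 to 0.124).

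Wnt ligands bind Frizzled receptors and LRP or ROR partners. Of 49 genes, 6 rose and 3 fell, beside 3.73% and 2.64% of all genes, with a median of 0.04 (-0.02 after quantile scaling). WNT5B, a non-canonical ligand, had 449.6, 188 and 557 at day 10, against 68.6, 33.8 and 36.1 at day 6 (log2 change 2.65 ± 0.45, adjusted p = 0.00122). LGR5, the R-spondin receptor of stem cells, had 189.6, 178 and 157 at day 10, against 29.1, 41.99 and 37.1 at day 6 (log2 change 1.88 ± 0.25, adjusted p = 0.000153). FZD1 had 274, 335 and 269.8 at day 10, against 115, 145 and 93.5 at day 6 (log2 change 1.22 ± 0.21, adjusted p = 0.00135). SP8, a zinc finger factor of the forebrain and limb, had 1591, 1905 and 1752 at day 10, against 455, 511 and 608 at day 6 (log2 change 1.71 ± 0.23, adjusted p = 0.000175). Lower on every day 10 array were ROR1, a WNT5A receptor, with 377, 415 and 248 at day 10, against 1262, 1442 and 1322 at day 6 (log2 change -1.93 ± 0.22, adjusted p = 3.62e-05), and TNFRSF19, with 150.4, 123 and 97.6 at day 10, against 305, 584 and 325 at day 6 (log2 change -1.55 ± 0.26, adjusted p = 0.0011). The common readouts ZNRF3 (0.04), LEF1 (-0.01) and AXIN2 (-0.39) did not pass, and neither did the ligands and agonists RSPO3 (-0.50), WNT5A (0.39) and WNT6 (0.57), the receptors FZD5 (0.68), FZD3 (0.76) and FZD7 (-0.84) and the antagonists SFRP1 (0.04), FRZB (0.69) and DKK3 (-0.28). The calls of WNT2B (1.33) and SP5 (-1.78), a Wnt target, rested on single arrays. WNT2B lost its call without day 10 pool 2 or day 6 pool 2 (adjusted p 0.111 to 0.113). SP5 lost its call without day 10 pool 2 or 3 or day 6 pool 3 (adjusted p 0.0566 to 0.0744).

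Hedgehog ligands relieve PTCH1's hold on SMO, and PTCH1, HHIP and GLI1 are also the pathway's targets. Of 13 genes, 3 rose and 2 fell, beside 3.73% and 2.64% of all genes. HHIP, the ligand trap, had 4.98, 2.9002 and 3.21 at day 10, against 103, 123 and 93.2 at day 6 (log2 change -2.63 ± 0.31, adjusted p = 5.15e-05). PTCH1 had 779, 846 and 679 at day 10, against 1833, 1589.8 and 1858 at day 6 (log2 change -1.18 ± 0.21, adjusted p = 0.00157), both lower on every day 10 array. GLI1 had 16.4, 22.7 and 18.97 at day 10, against 109.6, 76.4 and 69.4 at day 6 and a change of -1.50 ± 0.45 that did not pass (adjusted p = 0.0608). The co-receptor CDON rose, with 456, 383 and 374 at day 10, against 194, 175 and 171 at day 6 (log2 change 1.10 ± 0.22, adjusted p = 0.00521). SHH (-0.19), BOC (0.33), GLI2 (-0.04) and SMO (0.28) did not pass. GAS1, another co-receptor, rose by 1.02. GAS1 lost its call without day 10 pool 3 or day 6 pool 1 or 2 (adjusted p 0.0724 to 0.108).

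Other cell types were checked by their markers. The 17 mesoderm and endoderm genes gave 0 calls in either direction (6.37% of all genes were called), and MIXL1, SOX17 and FOXA2 were under 50 on all 6 arrays. The brightest of them, CXCR4 (0.72), AFP (0.57) and APOA2 (0.62), did not pass. Of 13 neural crest genes 1 fell, TFAP2A, with 227, 147 and 145 at day 10, against 720.1, 702 and 589 at day 6 (log2 change -1.88 ± 0.40, adjusted p = 0.00703), a factor of crest and surface ectoderm. Of the 3 measured markers fixed for surface ectoderm, GRHL3 fell, and the keratins KRT5 and KRT14 were under 50 on all 6 arrays. The summed signal of these 3 was 30.8 to 65.7 at day 10 and 171 to 188 at day 6. SOX10 changed by 0.01 ± 0.37 and NGFR by 0.13 ± 0.41, and neither passed, nor did ETS1 (0.05), SNAI2 (0.37) and ERBB3 (-1.01). Of 13 trophoblast and amnion genes, 1 rose and 2 fell, beside 3.73% and 2.64% of all genes. TFAP2C had 122, 132 and 102 at day 10, against 512, 656 and 568 at day 6 (log2 change -2.14 ± 0.24, adjusted p = 2.41e-05). IGFBP3 rose by 1.28 and EPAS1 fell by 1.61. EPAS1 lost its call without day 10 pool 3 or day 6 pool 2 (adjusted p 0.05 to 0.0533). GATA3 (-1.16), HAND1 (-0.15) and HEY1 (0.31) did not pass, and CGA, the hormone subunit of trophoblast, was under 50 on all 6 arrays.

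Among 20 antigen presentation and interferon genes, 3 fell and 0 rose, beside 2.64% and 3.73% of all genes. Their median was -0.31, and -0.006 without day 10 pool 2. IDO1, the tryptophan-degrading enzyme, had 38.4, 14.9 and 22.7 at day 10, against 372, 394 and 352 at day 6 (log2 change -3.27 ± 0.35, adjusted p = 2.12e-05). PSMB8, an immunoproteasome subunit, had 2.99, 5.697 and 5.31 at day 10, against 122, 54.7 and 96.2 at day 6 (log2 change -2.32 ± 0.28, adjusted p = 6.52e-05). IFITM1, a surface protein of ES cells, had 869, 586 and 1078 at day 10, against 3216, 2667 and 3744 at day 6 (log2 change -1.94 ± 0.38, adjusted p = 0.00395). IFITM3 (-0.39), B2M (0.63) and IFITM2 (0.01) did not pass.

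Of 17 cell death genes and p53 targets, 5 rose and 2 fell (3 and 2 without day 10 pool 2), beside 3.73% and 2.64% of all genes. The killer protein BIK had 10.6, 11.1 and 39.8 at day 10, against 275, 329 and 316 at day 6 (log2 change -3.23 ± 0.53, adjusted p = 0.000868). PMAIP1, a killer protein and p53 target, had 145, 145 and 155 at day 10, against 599.7, 1070.2 and 918 at day 6 (log2 change -2.38 ± 0.27, adjusted p = 3.44e-05). Both were lower on every day 10 array. The survival protein BCL2 had 138, 118 and 140.1 at day 10, against 48.99, 32.9 and 34.3 at day 6 (log2 change 1.45 ± 0.19, adjusted p = 0.000126). The p53 target ZMAT3 had 203, 305 and 255 at day 10, against 127, 89.4 and 59.7 at day 6 (log2 change 1.35 ± 0.27, adjusted p = 0.0046), both higher. SESN3 (-0.06) and the p53 targets MDM2 (-0.02) and TP53INP1 (0.53) did not pass. The p53 targets CDKN1A (1.61) and TNFRSF10B (1.06) rose, and their calls rested on single arrays. The p53 targets named here thus went both ways, with PMAIP1 lower. CDKN1A lost its call without day 10 pool 2 or 3 or day 6 pool 1, 2 or 3 (adjusted p 0.0782 to 0.175). TNFRSF10B lost its call without day 10 pool 1 or 3 or day 6 pool 2 (adjusted p 0.0548 to 0.0867).

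Of 24 cell cycle genes, 1 rose and 1 fell (4.17% each), beside 3.73% and 2.64% of all genes. CCND2, the D cyclin of neural progenitors, rose, with 3245, 2467 and 3307 at day 10, against 1411, 1568 and 1777 at day 6 (log2 change 0.91 ± 0.20, adjusted p = 0.00908), and BUB1 (-0.88) fell, a call lost with single arrays. BUB1 lost its call without day 10 pool 3 or day 6 pool 1 or 2 (adjusted p 0.0505 to 0.0875). PCNA (-0.14), CDK1 (-0.26) and MCM6 (-0.10) did not pass. The 19 ribosomal protein genes gave 0 calls, where 6.37% of all genes were called, and a median of -0.06, against 0.09 over all genes (0.12 without day 10 pool 2), with RPS23 (-0.03), RPS19 (0.01) and RPL10A (0.04) the brightest.

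The day 10 and day 6 values can be placed in the untreated series (mean ± SD, n = 3 pools each). HESX1 was 480.2 ± 79.3 in ES cells, 2777 ± 271 at day 6, 382 ± 169.6 at day 10 and 43.1 ± 14.1 at day 17. ALDH1A2 was 2.32 ± 0.195 in ES cells, 321 ± 123 at day 6, 22.4 ± 15.5 at day 10 and 9.13 ± 5.98 at day 17. Both were thus highest at day 6. MIR302B was 12696 ± 1371 in ES cells, 13797 ± 1445 at day 6, 1751 ± 306 at day 10 and 467 ± 80.1 at day 17, so the ES and day 6 arrays overlapped. CDH11 was 57.7 ± 3.12 in ES cells, 138 ± 29.1 at day 6, 907 ± 128 at day 10 and 510.2 ± 69.6 at day 17, highest at day 10. SOX1 was 11.8 ± 9.49 in ES cells, 56.2 ± 6.15 at day 6, 612 ± 184 at day 10 and 1551 ± 353 at day 17. These levels are a description, and only day 10 against day 6 was tested.

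**Figure D5:**
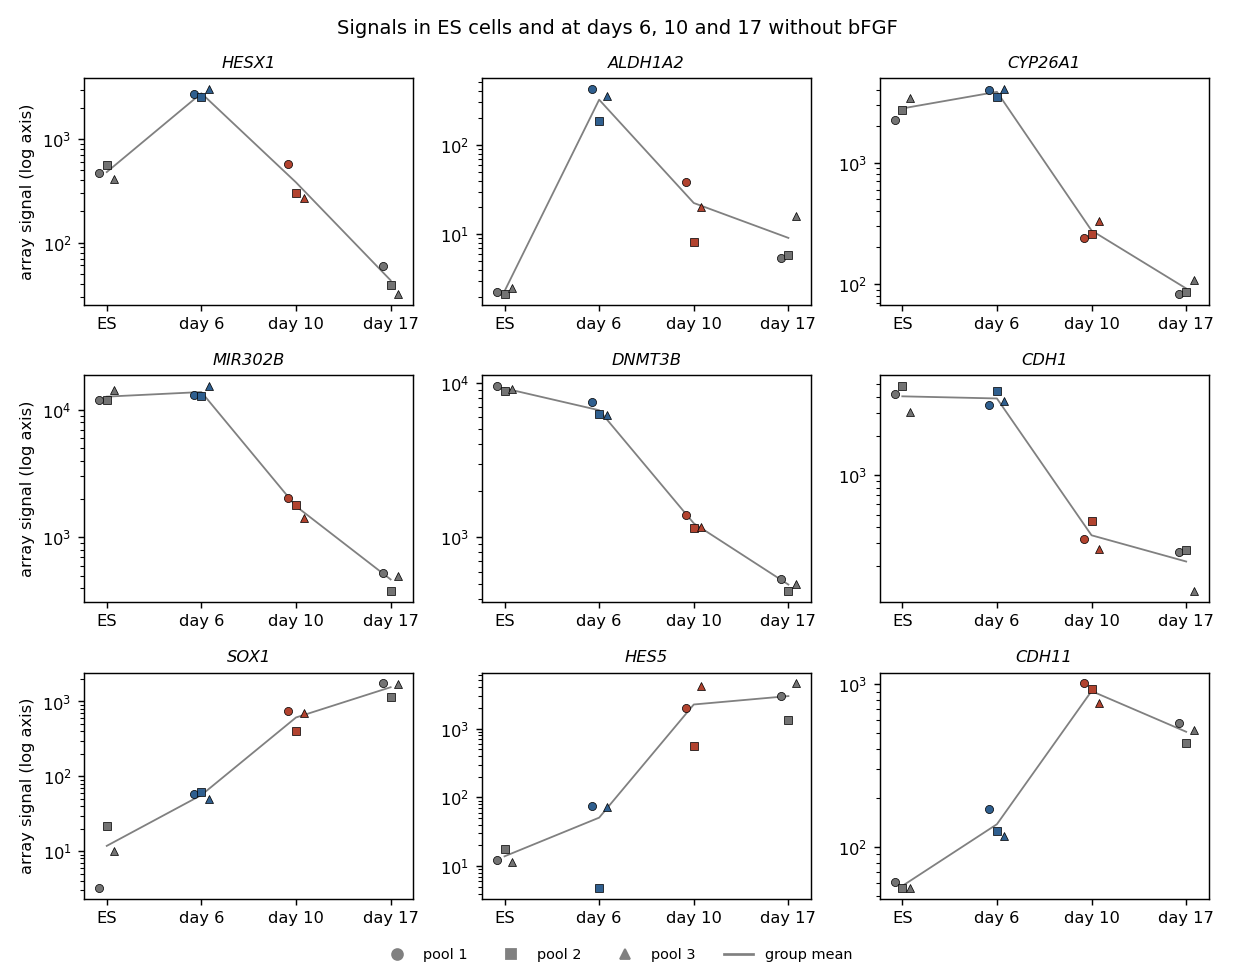
Signals (vertical log axis) of 9 genes in ES cells and at days 6, 10 and 17 without bFGF, with pools as symbols and group means as lines. HESX1 and ALDH1A2 are highest at day 6, CDH11 at day 10, and the ES and day 6 arrays overlap for MIR302B and CDH1.

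Over the 6 group means of the study, the genes most like CDH1 were FERMT1, TET1, ZFP36L2, DUS4L and WTAP, with Pearson correlations of 0.9954 to 0.9994. The genes most like HES5 were MAGI2-AS3, CNTN6, GAS2L3, ZNF703 and OPN3 (0.9983 to 0.9990), and those most like SOX1 were RAB40B, SMIM17, APBB2, IFFO1 and PGM5-AS1 (0.9981 to 0.9989). With 6 points and 19775 genes, such likeness is a description of these 6 groups.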

How the data were processed

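Total RNA pools were hybridised to 1-colour Affymetrix arrays of 54675 probe sets. The values the authors deposited are linear intensities, 1 for each probe set on an array, already scaled to a common level, and the summarisation software is not given in the sources used here. Groups came from the sample titles. The platform annotation named 1 gene for 41097 probe sets, several for 1801 and none here for 11777. Each of 19775 genes took 1 probe set, without _x_at where another existed, with the highest mean over 18 arrays. Signals were taken as log2(signal + 16), which understates changes of low genes, and fitted with limma 3.58.1 (R 4.3.3) with 6 group means over 18 arrays, with Benjamini-Hochberg adjustment over all genes. On simulated data the fit recovered 34% of log2 changes of 1 and 80% of those of 2, with 9 false calls. The simulated noise was independent for each array, with no shared pool effect and no raised low signals. A gene that did not pass is therefore not shown to be unchanged. Members and the 26 gene lists were chosen with earlier results of these data known. Named genes are the markers and genes among the 30 largest changes each way. The 30 were ranked among called genes whose groups did not overlap, with an approved symbol (LOC and LINC names left out). Up to 6 called and 3 brightest uncalled members per role are also named. So are all Notch, HES, DNMT, TET and fibrillar collagen genes listed. Named outside this rule, after their values were seen, were DCX, CLDN1, SNAI1, EZH2, SHH, GLI1, SOX10, NGFR, PRELP and the HOX and CDX genes. Promoter and microRNA sequences are RefSeq's (GRCh38.p14). Genes with no probe set of their own, such as POU5F1, were not analysed here.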

Additional observations from a re-analysis of the deposited data

How the results depend on the processing

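The 1259 differing genes, 737 higher and 522 lower, became 647, 381 and 266 when the 6 arrays were fitted alone, and 813, 482 and 331 without pool 2 of all groups. With the pool number as a replicate block they were 2512, 1374 and 1138 over 18 arrays and 578, 343 and 235 over these 6. Deviations from the group means correlated at 0.0749, 0.337 and 0.187 between same-numbered pools of the 2 groups, and at -0.339 to 0.189 between different-numbered ones. The labels do not state that the numbers pair the arrays, so the main fit did not take them as pairs. Pool 2 of all 6 groups had ACTB 3′ to 5′ ratios of 2.27 to 2.64, against 1.17 to 1.75 on the other arrays. Median signals were 48.7 to 50.8 in pool 2 of the day 10 and day 17 groups, against 25.2 to 32.7 on the other arrays. Arrays of pool 2 thus had traits in common across groups, and the cause was not tested. Leaving out 1 array gave 842 to 1033 genes, 504 to 621 higher and 336 to 412 lower, the fewest lower without day 6 pool 2 (336) or 3 (338). Testing all 41097 single-gene probe sets gave 1957. The remaining choices gave 1050 to 1783 genes. They were pseudocounts of 1 or 64, quantile scaling, only the brighter 60% of genes, a trended robust prior, averaged probe sets, and the 4 arrays with raised low signals as a term or left out. Some alternatives fit fewer arrays or genes, and why the counts changed was not tested. Of 188 named genes that passed the test, 110 kept call and direction in every alternative, and 0 turned. Calls were lost by 14 of them under quantile scaling, 27 with a pseudocount of 1, 27 with the mean of probe sets and 42 with the 6 arrays alone. Genes under a signal of about 16 have compressed changes, and 3 arrays a group limit the precision.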

Other observations

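Several genes outside the lists above were among the 30 largest increases, and those given here were picked with their values seen. NCALD, a neuronal calcium sensor, had 562, 554 and 621 at day 10, against 46.7, 41.7 and 40.9 at day 6 (log2 change 3.33 ± 0.24, adjusted p = 3.41e-07). NPY2R, a receptor for neuropeptide Y, had 422, 453 and 575 at day 10, against 34.9, 38.1 and 45.5 at day 6 (log2 change 3.16 ± 0.23, adjusted p = 4.31e-07). SST, the somatostatin gene, had 796, 287 and 402 at day 10, against 51.01, 64.02 and 43.7 at day 6 (log2 change 2.78 ± 0.46, adjusted p = 0.00107). NLGN1, the synaptic adhesion protein neuroligin, had 439.6, 494 and 421 at day 10, against 49.6, 67.6 and 47.5 at day 6 (log2 change 2.73 ± 0.17, adjusted p = 1.16e-07). Only called genes whose groups did not overlap could be among these 30, so the lack of overlap was fixed by that choice. Also among them were EYA4, a coactivator of homeobox factors, with 358, 305 and 363 at day 10, against 17.8, 35.9 and 11.6 at day 6 (log2 change 3.29 ± 0.25, adjusted p = 6.76e-07), PRDM16, a regulator of radial glia in mouse, with 352, 169 and 207 at day 10, against 20.2, 20.3 and 26.1 at day 6 (log2 change 2.70 ± 0.29, adjusted p = 1.68e-05), and ZBTB16, a zinc finger repressor of progenitors, with 612, 246 and 765 at day 10, against 42.2, 48.97 and 54.3 at day 6 (log2 change 2.97 ± 0.49, adjusted p = 0.000957). Day 10 pool 2 was the lowest of the day 10 pools for all 3. EFEMP1, an extracellular fibulin, had 1524, 1060.1 and 1998 at day 10, against 194, 173 and 142 at day 6 (log2 change 3.02 ± 0.30, adjusted p = 8.72e-06). MSRB3, a methionine sulfoxide reductase, had 273, 274 and 324 at day 10, against 20.9, 40.4 and 28.2 at day 6 (log2 change 2.76 ± 0.19, adjusted p = 1.83e-07).

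Among the 30 largest decreases, other genes outside the lists were picked in the same way. SCNN1A, a subunit of the epithelial sodium channel, had 15.7, 9.101 and 30.4 at day 10, against 649, 286 and 426 at day 6 (log2 change -3.74 ± 0.39, adjusted p = 1.28e-05). KCNK1, a potassium channel, had 57.2, 51.8 and 88.1 at day 10, against 576, 724 and 728 at day 6 (log2 change -3.10 ± 0.21, adjusted p = 1.83e-07). SCGB3A2, a secretoglobin known from airway cells, had 5.53, 4.04 and 2.46 at day 10, against 249, 249 and 210.5 at day 6 (log2 change -3.65 ± 0.17, adjusted p = 6.64e-09), with all day 10 values under the added 16. FRAT2, a GSK3-binding activator of Wnt signalling, had 128, 149 and 118 at day 10, against 1505, 1076 and 1166 at day 6 (log2 change -3.09 ± 0.19, adjusted p = 7.67e-08). SHISA3, an antagonist of Wnt and FGF receptors, had 24.2, 15.8 and 23.7 at day 10, against 324, 231 and 318 at day 6 (log2 change -3.04 ± 0.24, adjusted p = 1.02e-06). This ranking too took only called genes whose groups did not overlap. VSNL1, a neuronal calcium sensor like NCALD, had 100.3, 197 and 67.8 at day 10, against 1059.8, 938 and 766 at day 6 (log2 change -2.87 ± 0.37, adjusted p = 0.000124), the opposite direction to NCALD.

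The day 10 pools differed among themselves more than the day 6 pools did. Between day 10 pools, 1930 (pools 1 and 3), 3273 (pools 1 and 2) and 4524 (pools 2 and 3) genes differed by over 2-fold in log2(signal + 16), against 847 to 1399 between pairs of day 6 pools.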
